A study of Mus musculus with 12 samples.

Results

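The 9 genes described here encode transcription factors of the myeloid lineage: Spi1, Cebpa, Cebpb, Cebpd, Cebpe, Klf2, Maf, Runx1 and Zeb2. They were chosen by symbol, and all 9 of them were found among the 54532 genes of the count files and passed the filter on low counts (14324 genes tested). The RNA came from CD11b+Ly6Chi monocytes, the inflammatory class of monocytes, which were sorted from mouse bone marrow and kept in culture with or without lipopolysaccharide (LPS), the cell wall component of gram-negative bacteria. The groups were monocytes of mice given 300 mM succinate for 7 days with 4 h of LPS, monocytes of control mice with 4 h of LPS, unstimulated monocytes of succinate-treated mice, and unstimulated monocytes of control mice, with 3 libraries in each. The labels used here do not state the strain, sex or age of the mice. Nor do they say that replicates are separate animals, so p-values here cover the scatter among libraries, part or all of which may be technical.

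These factors set up the monocyte and granulocyte programmes in an order that is well known from marrow. Spi1 encodes PU.1, the ETS-family factor that opens myeloid enhancers. Runx1 acts before and beside it in blood stem and progenitor cells. The C/EBP proteins are basic leucine zipper factors that dimerise with each other and share DNA sites: C/EBP alpha drives progenitors towards granulocytes and monocytes, C/EBP epsilon drives secondary granule genes of neutrophils, and C/EBP beta and delta are known for acute inflammatory transcription. Klf2 encodes a Kruppel-like zinc finger factor that keeps myeloid and endothelial cells quiescent, Maf encodes c-Maf, a large basic leucine zipper factor of macrophages and a driver of Il10, and Zeb2 encodes a zinc finger repressor needed for monocyte identity.

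Total counts per library lay between 15975882 and 18306747. Of 10 markers of Ly6C-high monocytes, all were detected, with summed levels of 7262 to 12320 CPM. Here CPM are edgeR's counts scaled to the library size after its adjustment by the TMM factor of each library. The 6 T and NK cell markers summed to at most 1.94 CPM. The Ly6C-high sum, of which Lyz2 and Chil3 were the largest parts, differed by group. With LPS it was 7262 to 8429 CPM in succinate and 8508 to 9744 CPM in control libraries. Without LPS it was 8141 to 10460 CPM in succinate and 11250 to 12320 CPM in control libraries. At an adjusted p below 0.05 in edgeR, none of the 10 markers differed between succinate and control mice, with or without LPS. Under LPS, 1 of them rose and 5 fell in each kind of mouse. Ly6c2 averaged 1277 and 1233 CPM in LPS cells of succinate and control mice, and 572 and 593 CPM in their unstimulated cells. The part of the differences in this sum in the members' values was not tested. Neutrophil markers summed to 6638 to 19250 CPM and progenitor markers to 2307 to 4975 CPM, and in bulk RNA a change in the number of such cells cannot be told apart from a change in the RNA per cell. The transcripts of 5 genes (S100a4, Rpl24, Rpl10-ps3, Gm14303 and Rpl35a-ps2) split the libraries in another way, into 5 with a higher mean log2 CPM and 7 with a lower one. The cut lay at the widest gap in this mean, a rule that always gives 2 classes. Replicates 2 and 3 without LPS, in succinate and control mice alike, formed the higher class together with control LPS replicate 3. All 3 succinate LPS libraries were in the lower class.

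RefSeq start-site sequences (GRCm38.p6, 250 bases before and 50 after each start) were at hand for 5 of the 9 genes. Shown are 3 windows, because Cebpa and Runx1 are the 2 members whose mRNA fell under LPS and because the Runx1 counts add up transcripts from 2 start sites. Capitals mark matches, on either strand, to the RUNX core TGTGGT, the ETS core GGAAGT or the C/EBP form TTGCNNAA.

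Cebpa, chr7:35119043-35119342, plus strand: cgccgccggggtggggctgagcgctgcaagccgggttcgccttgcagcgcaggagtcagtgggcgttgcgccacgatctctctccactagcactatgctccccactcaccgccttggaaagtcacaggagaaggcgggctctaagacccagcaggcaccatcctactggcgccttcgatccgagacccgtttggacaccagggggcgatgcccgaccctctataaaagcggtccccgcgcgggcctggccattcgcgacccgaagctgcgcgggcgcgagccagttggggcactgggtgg
Runx1, upstream start, chr16:92826025-92826324, minus strand: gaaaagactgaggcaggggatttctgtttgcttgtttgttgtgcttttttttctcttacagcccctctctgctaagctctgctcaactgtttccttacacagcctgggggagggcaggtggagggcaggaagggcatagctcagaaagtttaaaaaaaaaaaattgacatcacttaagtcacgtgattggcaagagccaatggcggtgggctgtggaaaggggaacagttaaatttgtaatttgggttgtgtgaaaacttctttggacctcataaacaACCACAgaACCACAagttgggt
Runx1, downstream start, chr16:92697280-92697579, minus strand: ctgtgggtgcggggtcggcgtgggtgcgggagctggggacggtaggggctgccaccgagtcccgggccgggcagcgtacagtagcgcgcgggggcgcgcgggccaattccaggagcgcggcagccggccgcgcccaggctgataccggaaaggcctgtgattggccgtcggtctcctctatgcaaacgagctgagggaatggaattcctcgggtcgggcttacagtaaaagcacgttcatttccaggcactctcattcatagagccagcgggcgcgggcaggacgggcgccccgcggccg

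The upstream Runx1 window held TGTGGT at 2 places on its opposite strand, 29 to 34 and 37 to 42 bases from the start counted from 1, and the other 2 windows held none of the 3 motifs. Of all 32851 windows in the table, 16.8% held TGTGGT, 23.8% GGAAGT and 10.8% TTGCNNAA. The windows differ in base composition, with 45.0% G+C at the upstream Runx1 start, 69.0% at the downstream one and 67.3% at Cebpa, against a median of 52.7% over the table. The gene counts do not separate the 2 Runx1 start sites.

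Per kilobase of annotated exon, Cebpb and Spi1 were the highest of the 9 in each of the 4 groups. Cebpb stood at 408 ± 52.9, 602 ± 115, 450 ± 25 and 494 ± 56 CPM per kilobase (mean ± SD, n = 3) in succinate LPS, control LPS, unstimulated succinate and unstimulated control cells, and Spi1 at 302 ± 15.7, 328 ± 26.4, 238.5 ± 11.5 and 258 ± 11.2 in the same groups. Next came Cebpe, between 126 and 164 CPM per kilobase, whose product is known from late neutrophil development, and then Cebpa. Maf was the lowest of the 9, at 2.19 ± 1.21, 1.53 ± 1.20, 0.538 ± 0.109 and 0.575 ± 0.228 CPM per kilobase in those groups. Several neighbours in the order did not differ beyond their spread. Among them were Zeb2 and Cebpd in control LPS cells (44.4 ± 4.65 and 44.1 ± 3.58), and Klf2 and Runx1 in control LPS cells (17.5 ± 4.89 and 15.6 ± 0.747). The same held for Cebpd and Runx1 in unstimulated succinate cells (22.3 ± 2.83 and 21.3 ± 1.29) and Cebpe and Cebpa in unstimulated control cells (126 ± 14.9 and 116.5 ± 5.04). These levels use the union of all annotated exons, which is 19942 bases for Zeb2 and 12025 for Runx1 but 1504 for Cebpb, so genes with many long isoforms read low on this scale.

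**Figure D1:**
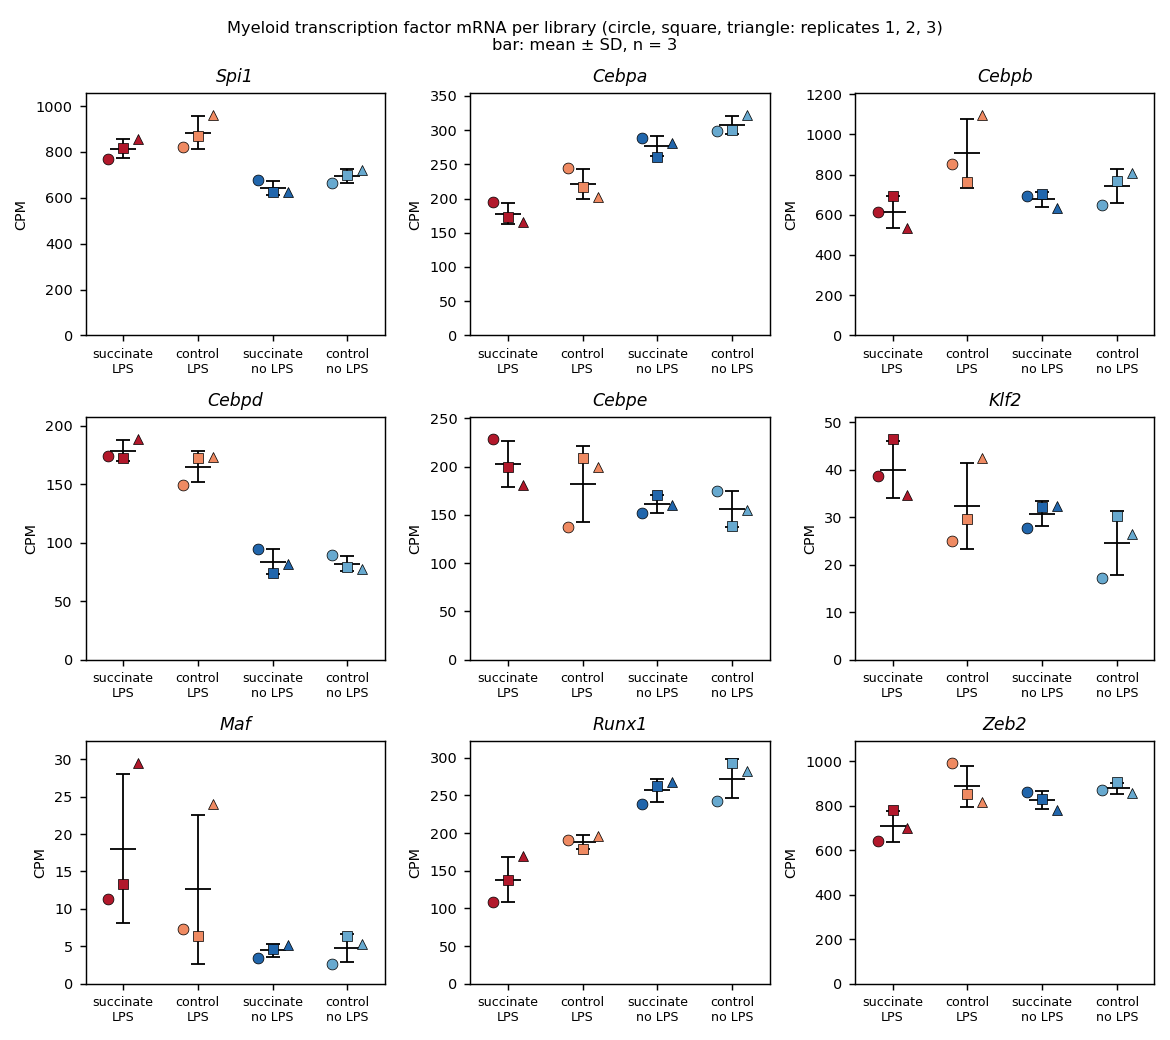
CPM of each member in each library, on linear axes from 0, with 1 panel per gene, 1 symbol per replicate, and bars for the mean ± SD (n = 3). The LPS libraries lie above the unstimulated ones for Cebpd and Spi1 and below them for Cebpa and Runx1, and Maf is highest in replicate 3 of both LPS groups (29.5 and 24.0 CPM).

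The first question was how LPS changed these mRNAs. In each kind of mouse 3 members rose (Cebpd, Spi1 and Maf), 2 fell (Cebpa and Runx1) and 4 did not pass, with a call made at an adjusted p below 0.05 from edgeR's quasi-likelihood test over all genes. Among all genes 30.2% were called in succinate mice (14.1% higher, 16.2% lower) and 30.1% in control mice (15.3% higher, 14.8% lower). At an unadjusted p below 0.05 there were 6 members in succinate mice and 5 in control mice, against 40.0% and 39.2% of all genes. The LPS and unstimulated libraries did not overlap for 41.4% of all genes in succinate mice and 45.5% in control mice. The 2 comparisons share no library, but the same fit over all 12 libraries gave both, with a pooled estimate of spread. The same 5 members were called in the same direction in both. Over all genes 3316 were so called, 76.6% of the calls in succinate mice and 77% of those in control mice. The median log2 fold change of the 9 members was 0.34 in succinate mice and 0.29 in control mice, against medians over all genes of -0.017 and -0.004.

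Cebpd, the C/EBP delta gene (chromosome 16, 15887286 to 15891031, GRCm38, a single exon), roughly doubled. It had 174.5, 172 and 189 CPM in replicates 1 to 3 of succinate LPS cells and 149.7, 172 and 173 CPM in control LPS cells. Without LPS, Cebpd had 94.9, 73.9 and 81.9 CPM in succinate mice and 89.3, 79.1 and 77.7 CPM in control mice. Every LPS library was above every unstimulated one. The log2 fold change was 1.09 ± 0.11 (SE, adjusted p = 3.56e-06, edgeR) in succinate mice and 1.01 ± 0.11 (adjusted p = 7.48e-06) in control mice, and it was called in all 22 alternatives of both comparisons. Cebpd shares 562 exonic bases with Spidr on the other strand, and how reads of overlapping genes were assigned is not given. Spidr, a DNA repair gene, averaged 31.2 ± 4.54, 34.2 ± 1.18, 23.4 ± 3.01 and 28.0 ± 0.616 CPM in the 4 groups in the same order. Its change under LPS had the same direction as that of Cebpd. Spidr was called in succinate mice (0.41 ± 0.13, adjusted p = 0.025, edgeR) and not in control mice (0.29 ± 0.13, adjusted p = 0.111).

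Spi1 (chromosome 2, 91082390 to 91115756) rose less. Its levels were 771, 816 and 855 CPM in succinate LPS cells and 822, 868 and 962 CPM in control LPS cells. Without LPS, Spi1 had 679, 625.5 and 624 CPM in succinate mice and 663.5, 698 and 723.5 CPM in control mice. The LPS and unstimulated libraries did not overlap, and the change was 0.34 ± 0.10 (adjusted p = 0.0186, edgeR) in succinate mice and 0.35 ± 0.10 (adjusted p = 0.0165) in control mice, a 1.27-fold difference in each. The call was lost in 4 of 22 alternatives in succinate mice, among them leaving out succinate LPS replicate 2 or 3 or unstimulated succinate replicate 3 (adjusted p = 0.0521 to 0.0709), and in 3 of 22 in control mice, among them leaving out unstimulated control replicate 1 (adjusted p = 0.0647).

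Maf (chromosome 8, 115682942 to 115707794) showed the largest fold changes of the 9 genes and the widest spread. It had 11.3, 13.4 and 29.5 CPM in succinate LPS cells and 7.32, 6.43 and 24.0 CPM in control LPS cells. Without LPS, Maf had 3.47, 4.61 and 5.23 CPM in succinate mice and 2.66, 6.31 and 5.24 CPM in control mice. In both LPS groups replicate 3 was more than 2-fold above the other replicates, and in control mice the lowest LPS library (6.43 CPM) was just above the highest unstimulated one (6.31 CPM). The log2 fold change was 2.02 ± 0.49 (adjusted p = 0.00572, edgeR) in succinate mice, called in 22 of 22 alternatives, and 1.41 ± 0.49 (adjusted p = 0.0422) in control mice, called in 12 of 22. In control mice neither DESeq2 (1.42, adjusted p = 0.0567) nor limma-voom (1.23, adjusted p = 0.11) called Maf. Nor did edgeR with scaling by library size alone (1.32, adjusted p = 0.0509) or with only the groups compared (1.41, adjusted p = 0.0529). Without control LPS replicate 3 the value in control mice was 0.57 (adjusted p = 0.342, edgeR). The call also ended without unstimulated control replicate 1 (1.12, adjusted p = 0.143) or 3 (1.52, adjusted p = 0.0817), and without unstimulated succinate replicate 1 (1.41, adjusted p = 0.0509) or 2 (1.41, adjusted p = 0.053). Summed levels of 7 macrophage markers were higher with LPS, at 745 to 879.8 CPM in succinate LPS libraries, 798 to 941 CPM in control LPS libraries, 157 to 221 CPM in unstimulated succinate libraries and 224 to 258.5 CPM in unstimulated control libraries. This sum was mostly Vcam1, an adhesion molecule, which averaged 697 CPM in succinate LPS cells, 736 CPM in control LPS cells, 91.9 CPM in unstimulated succinate cells and 121 CPM in unstimulated control cells. Of the 4 markers tested, 1 (Vcam1) rose in each LPS comparison, while Adgre1, Mrc1 and Cd163 did not pass. The other 3, C1qa, C1qb and C1qc, were below 1 CPM in each group, and the part of macrophages in the Maf level was not tested.

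Cebpa, the single-exon gene of C/EBP alpha (chromosome 7, 35119293 to 35121928), fell. Its levels were 195, 174 and 165 CPM in succinate LPS cells and 245, 217 and 202 CPM in control LPS cells. Without LPS, Cebpa had 288, 260.3 and 281 CPM in succinate mice and 299, 299.8 and 322 CPM in control mice. No LPS library reached an unstimulated one. The log2 fold change was -0.63 ± 0.11 (adjusted p = 0.000298, edgeR) in succinate mice, called in 22 of 22 alternatives, and -0.47 ± 0.11 (adjusted p = 0.00301) in control mice, called in 21 of 22. Within the lower library class it was -0.67 (adjusted p = 0.0154) and -0.35 (adjusted p = 0.195) in the 2 comparisons.

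Runx1, the gene of the core-binding factor alpha subunit (chromosome 16, 92601466 to 92826149), fell as well. It had 109, 137 and 169 CPM in succinate LPS cells and 190.1, 178 and 196 CPM in control LPS cells. Without LPS, Runx1 had 239, 263 and 268 CPM in succinate mice and 242.5, 293 and 282 CPM in control mice. The 2 conditions did not overlap, and the succinate LPS replicates were the lowest and the most spread. The log2 fold change was -0.89 ± 0.14 (adjusted p = 0.000171, edgeR) in succinate mice, a 1.86-fold lower level, and -0.53 ± 0.14 (adjusted p = 0.00852) in control mice, a 1.45-fold lower level. The difference between these 2 changes did not pass (-0.36 ± 0.20, adjusted p = 1, edgeR). In control mice the call was lost without unstimulated control replicate 2 (-0.46, adjusted p = 0.0521) and within the lower library class (-0.38, adjusted p = 0.354), and it stood at adjusted p = 0.05 without control LPS replicate 2.

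The other 4 members did not pass under LPS. Cebpb (chromosome 2, 167688915 to 167690418) had 613, 694 and 535 CPM in succinate LPS cells and 855, 763 and 1097 CPM in control LPS cells. Without LPS, Cebpb had 693.7, 703 and 634 CPM in succinate mice and 648, 769.9 and 809.7 CPM in control mice. The groups overlapped in both comparisons, with changes of -0.14 (95% interval -0.45 to 0.17, adjusted p = 0.505, edgeR) in succinate mice and 0.29 (-0.02 to 0.59, adjusted p = 0.158) in control mice. With the library class as a term Cebpb passed in control mice (0.35, adjusted p = 0.0498, edgeR) but not in succinate mice (adjusted p = 0.995). Cebpb shares 312 exonic bases with Tmem189 on the other strand, which fell by 1.14 ± 0.11 and 1.13 ± 0.11 on the log2 scale in the 2 comparisons and averaged 97.8 ± 3.1, 113 ± 6.95, 215 ± 25.5 and 248 ± 10.6 CPM in the 4 groups.

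Cebpe had 229, 199 and 181 CPM in succinate LPS cells and 137, 209 and 200.1 CPM in control LPS cells. Without LPS, Cebpe had 152, 171 and 160.3 CPM in succinate mice and 175, 138 and 155 CPM in control mice. The LPS libraries of succinate mice all lay above their unstimulated ones, and those of control mice straddled theirs because of LPS replicate 1. The change was 0.34 ± 0.15 (adjusted p = 0.11, edgeR) in succinate mice and 0.22 ± 0.15 (adjusted p = 0.311) in control mice. With no filter on low counts the change in succinate mice passed (0.36, adjusted p = 0.0446, edgeR). Without control LPS replicate 1 both changes passed, at 0.36 (adjusted p = 0.0324) and 0.42 (adjusted p = 0.0296). That library also had the lowest summed progenitor markers (2307 CPM, against 3297 and 4975 CPM in the other control LPS libraries). Unstimulated succinate replicate 1 was likewise lowest of its group in both (2537 CPM, Cebpe 152 CPM). In the remaining groups the library with the lowest sum had the highest Cebpe level. These were succinate LPS replicate 1 (3987 CPM, Cebpe 229 CPM) and unstimulated control replicate 1 (2731 CPM, Cebpe 175 CPM). The part of progenitor cells in the Cebpe level was not tested.

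Klf2 had 38.8, 46.5 and 34.6 CPM in succinate LPS cells and 25.0, 29.6 and 42.4 CPM in control LPS cells. Without LPS, Klf2 had 27.8, 32.0 and 32.4 CPM in succinate mice and 17.1, 30.2 and 26.4 CPM in control mice. The LPS libraries lay above the unstimulated ones in succinate mice and overlapped with them in control mice. The change was 0.38 ± 0.21 (adjusted p = 0.198, edgeR) in succinate mice and 0.40 ± 0.21 (adjusted p = 0.187) in control mice. With the library class as a term both passed, at 0.72 (adjusted p = 0.00425) and 0.57 (adjusted p = 0.00942).

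Zeb2 had the smallest change of the 9 in control mice. Its levels were 639.7, 779.6 and 700.2 CPM in succinate LPS cells and 991, 850.2 and 816 CPM in control LPS cells. Without LPS, Zeb2 had 862, 829 and 780.3 CPM in succinate mice and 872, 906 and 857 CPM in control mice. The LPS libraries of succinate mice lay just below their unstimulated ones, and those of control mice overlapped with theirs. The change was -0.22 (95% interval -0.46 to 0.01, adjusted p = 0.15, edgeR) in succinate mice and 0.01 (-0.22 to 0.25, adjusted p = 0.951) in control mice.

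**Figure D2:**
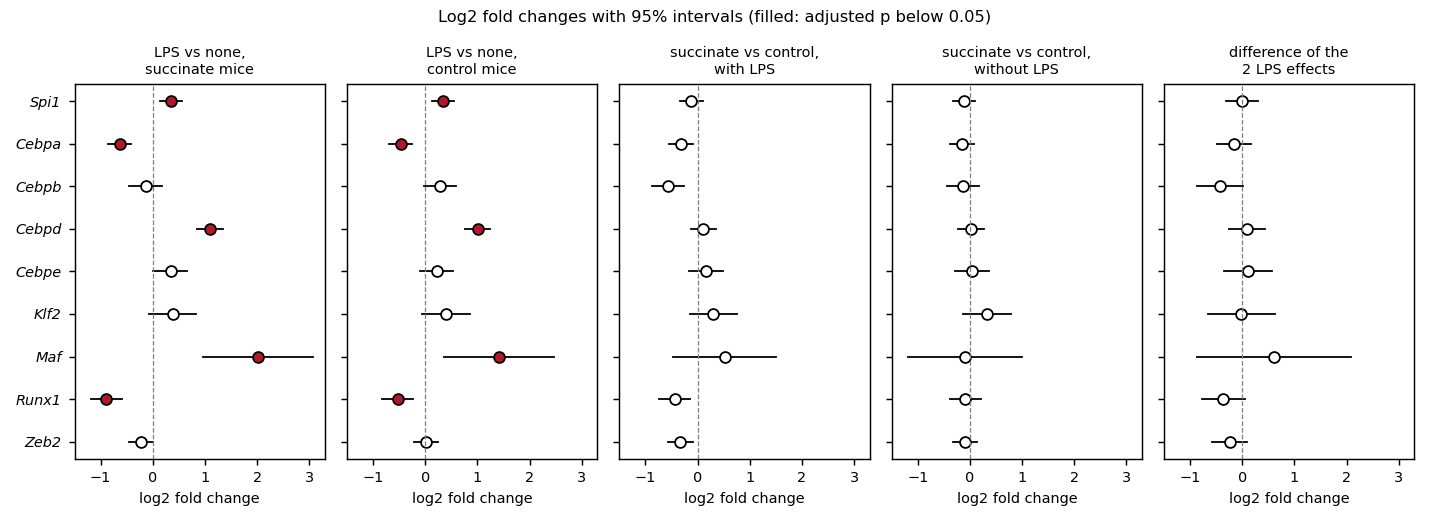
Log2 fold changes of the 9 members (points) with 95% intervals (lines) in the 5 comparisons, filled where the adjusted p was below 0.05. Cebpd, Spi1 and Maf are filled to the right of 0 and Cebpa and Runx1 to the left in both LPS comparisons, and no point is filled in the other 3.

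The second question was whether succinate treatment of the mice changed the members in LPS-stimulated cells. None of the 9 passed, where 0.0628% of all genes (9 of 14324) did. Of the 9 members, 4 had an unadjusted p below 0.05 (11.7% of all genes), and the same 4 were those whose libraries did not overlap (17.1% of all genes): Cebpb, Runx1, Zeb2 and Cebpa, each lower in succinate mice. The LPS comparison in succinate mice and this one share the succinate LPS libraries. The mitochondrially encoded share of counts was 1.22 to 1.26% in succinate LPS libraries and 0.984 to 1.07% in control LPS libraries, the ribosomal protein share 3.95 to 4.14% and 3.27 to 3.38%, and the part of these shares in the members' values was not tested.

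Cebpb had the largest of these differences relative to its error, at 614 ± 79.6 CPM in succinate LPS cells and 905 ± 172 CPM in control LPS cells (SD, n = 3 each), a log2 fold change of -0.56 ± 0.14 (adjusted p = 0.118, edgeR). DESeq2 called it (-0.56, adjusted p = 0.0154), as did edgeR with no filter on low counts (-0.55, adjusted p = 0.00485), and the other 20 alternatives did not. The value was -0.40 without control LPS replicate 3, which held its highest level, 1097 CPM. Runx1 averaged 138 ± 30.1 CPM in succinate LPS cells and 188 ± 8.99 CPM in control LPS cells (-0.44 ± 0.14, adjusted p = 0.208, edgeR), and without succinate LPS replicate 3 it passed (-0.61, adjusted p = 0.0367). Zeb2 averaged 706.5 ± 70.1 CPM in succinate LPS cells and 886 ± 92.7 CPM in control LPS cells (-0.33 ± 0.11, adjusted p = 0.248), and Cebpa 178 ± 15.4 CPM in succinate LPS cells and 221 ± 21.7 CPM in control LPS cells (-0.31 ± 0.11, adjusted p = 0.248). Within the lower library class, which holds all 3 succinate LPS libraries and 2 of the control LPS libraries, the values were -0.40 (Cebpb), -0.41 (Runx1), -0.38 (Zeb2) and -0.37 (Cebpa). Scaling by library size alone moved the median of all genes from -0.014 to 0.107 and these 4 values to -0.44 (Cebpb), -0.33 (Runx1), -0.21 (Zeb2) and -0.19 (Cebpa).

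The other 5 members had intervals that held 0 in this comparison. Spi1 was at -0.12 (95% interval -0.33 to 0.10), Cebpd at 0.11 (-0.13 to 0.35), Cebpe at 0.16 (-0.16 to 0.48), Klf2 at 0.30 (-0.14 to 0.75) and Maf at 0.52 (-0.47 to 1.51). The Maf value depended on 1 library of each group, since it was 1.39 without control LPS replicate 3 and -0.03 without succinate LPS replicate 3.

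In unstimulated cells none of the 9 members passed, as none of the 14324 genes did by edgeR, with 0 of the members and 3.73% of all genes at an unadjusted p below 0.05. DESeq2 called 1 gene, which was no member. The members' log2 fold changes, succinate over control mice, ran from -0.15 (Cebpa, 95% interval -0.38 to 0.07) to 0.32 (Klf2, -0.13 to 0.78), and the median was -0.09 against 0.006 over all genes. Cebpa was the only member whose libraries did not overlap here, at 260.3 to 288 CPM in succinate mice and 299 to 322 CPM in control mice, where 7.92% of all genes did not overlap. The difference between the LPS effects of succinate and control mice passed for no member and for no gene by edgeR (3.91% of all genes, and 0 members, at an unadjusted p below 0.05), while DESeq2 called 3 genes, none of them a member. The member nearest to passing was Cebpb (-0.43, 95% interval -0.86 to 0.01, unadjusted p = 0.0539 and adjusted p = 1 in edgeR's fit).

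The C/EBP genes were also read against each other within each library, as shares of the family's counts per kilobase of exon (Cebpa, Cebpb, Cebpd, Cebpe and the dimer partner Cebpg), which do not depend on how libraries are scaled. Cebpb held most of the family's mRNA in each group, at 57.8 ± 3.04% in succinate LPS cells, 66.96 ± 4.81% in control LPS cells, 61.9 ± 1.29% in unstimulated succinate cells and 63.3 ± 3.87% in unstimulated control cells. The Cebpa share was 8.75 to 10.2% in succinate LPS libraries and 7.44 to 11.2% in control LPS libraries, below the 13.3 to 15.3% and 14.6 to 15.5% of the unstimulated succinate and control libraries. The Cebpd share ran the other way, at 6.83 ± 1.01%, 4.96 ± 0.56%, 3.07 ± 0.38% and 2.83 ± 0.39% in the same 4 groups. Cebpe held 23.2 ± 1.96% of the family in succinate LPS cells, against 16.5 ± 3.64% in control LPS cells, 17.9 ± 1.19% in unstimulated succinate cells and 16.3 ± 2.65% in unstimulated control cells. In the Cebpe share the succinate LPS libraries (21.3 to 25.2%) did not overlap with the control LPS libraries (13.3 to 20.4%). Nor did they in the Cebpb share (55.8 to 61.3% and 61.6 to 70.8%) or the Cebpd share (6.11 to 7.98% and 4.50 to 5.59%). The CPM of Cebpe itself overlapped between these 2 groups (181 to 229 and 137 to 209 CPM, log2 fold change 0.16, adjusted p = 0.749, edgeR). Shares of 1 sum are not independent, and the higher Cebpe share stood beside the lower Cebpb share in the same libraries.

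**Figure D3:**
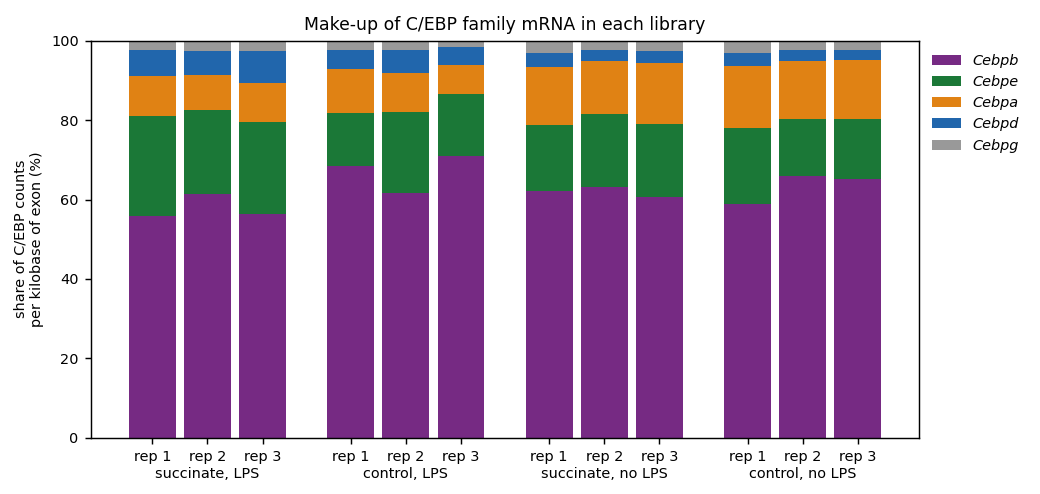
Share of each C/EBP gene in the family's counts per kilobase of exon, stacked to 100% for each of the 12 libraries. Cebpb fills most of every bar, the Cebpa segment is thinner and the Cebpd segment thicker in the LPS libraries, and the Cebpe segment is thickest in the 3 succinate LPS libraries (21.3 to 25.2%).

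Relatives of the members in the same protein families moved in both directions. Of 23 tested relatives, 7 rose and 8 fell under LPS in succinate mice, and 7 rose and 7 fell in control mice, with medians of -0.08 and 0. Klf4, a Kruppel-like factor needed for monocyte differentiation, fell: it averaged 10.01 ± 0.741 CPM in succinate LPS cells and 12.7 ± 2.25 CPM in control LPS cells, against 62.2 ± 6.11 and 54.1 ± 6.37 CPM in unstimulated cells of succinate and control mice. Its log2 fold change was -2.64 ± 0.15 (adjusted p = 9.96e-09, edgeR) in succinate mice and -2.08 ± 0.15 (adjusted p = 6.54e-08) in control mice, while Klf2 did not pass. Ets2, an ETS factor that responds to MAP kinase signalling, rose to 319 ± 49.4 CPM in succinate LPS cells and 329 ± 28.2 CPM in control LPS cells, against 80.1 ± 25.9 and 64.4 ± 4.69 CPM in unstimulated cells of succinate and control mice (1.99 ± 0.20 and 2.35 ± 0.20), a larger change than that of Spi1. Runx2 fell with Runx1 (-1.18, adjusted p = 1.28e-05, and -0.84, adjusted p = 0.000275), and their shared partner Cbfb did not pass (-0.08 and 0). Klf10 fell (-1.16 in succinate mice and -0.95 in control mice), and Klf7 rose (1.18 in succinate mice and 1.17 in control mice). None of the 23 passed in either succinate comparison, where Runx2 (-0.34, adjusted p = 0.363, edgeR) with LPS and Spib (0.89, adjusted p = 0.958) without LPS had the smallest p.

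**Figure D4:**
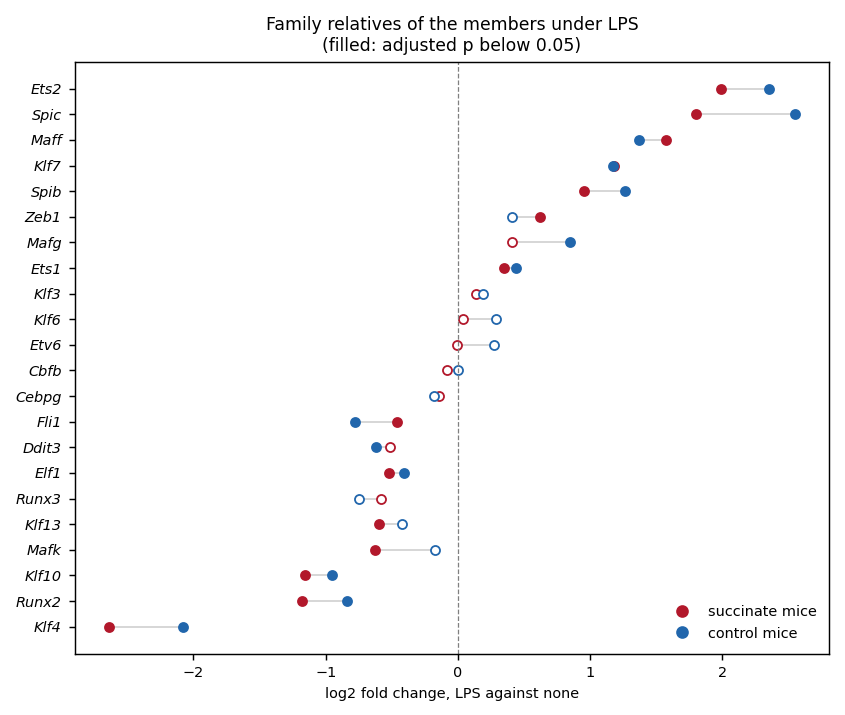
Log2 fold change under LPS of 22 of the 23 tested family relatives in succinate mice and control mice, filled where the adjusted p was below 0.05. Klf4 (-2.64 and -2.08) lies farthest to the left, and Ets2 (1.99 and 2.35) and Spic (1.80 and 2.55) farthest to the right.

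Of 27 other transcription factors of myeloid development, 7 rose and 8 fell in succinate mice and 7 rose and 7 fell in control mice. Myb, a progenitor factor, averaged 133 ± 24.2 and 126 ± 10.8 CPM in LPS cells of succinate and control mice and 61.1 ± 13.6 and 68.2 ± 2.52 CPM in their unstimulated cells, and rose by 1.12 ± 0.16 and 0.89 ± 0.16. Tfec, a macrophage basic helix-loop-helix factor, rose by 1.67 ± 0.13 and 1.92 ± 0.13, and Myc by 2.57 in succinate mice and 1.97 in control mice. Bach2, a repressor best known from lymphocytes, fell (-1.44 ± 0.18 and -1.91 ± 0.18), as did the early growth response factor Egr1 (-1.84 in succinate mice and -2.97 in control mice) and Irf8, which specifies monocytes (-1.61 ± 0.30 and -1.26 ± 0.29). Between succinate and control mice with LPS none passed, and the smallest p was that of Bhlhe40 (-0.58 ± 0.12, adjusted p = 0.0655, edgeR), a factor that restrains Il10 in T cells and macrophages, at 358 ± 54.6 CPM in succinate LPS cells and 533 ± 26.2 CPM in control LPS cells.

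Known target genes of the factors were counted in the same 2 LPS comparisons, and a change in a target does not show which factor acted on it. Of 26 tested targets of PU.1 and C/EBP alpha in the monocyte programme, 7 rose and 5 fell in succinate mice and 6 rose and 4 fell in control mice (medians 0.03 and 0.06). The oxidase subunit Cybb (1.99 ± 0.13 and 2.08 ± 0.13) and the oxidase subunit Ncf1 (1.55 ± 0.15 and 1.31 ± 0.14) rose, and the interleukin 6 receptor Il6ra fell (-1.69 ± 0.13 and -1.93 ± 0.13). Of 17 tested targets of C/EBP beta and delta in the acute response, 16 rose in succinate mice and 17 in control mice. Among all genes 14.1% and 15.3% rose. The list holds genes already known to answer LPS, such as Il6, Il1b and Tnf, so this count says nothing about the 2 factors. Orm1, an acute-phase protein, rose by 1.80 and 1.82, and haptoglobin Hp averaged 1923 ± 306 and 1882 ± 189 CPM in LPS cells of succinate and control mice and 265 ± 28.9 and 288 ± 15.3 CPM in their unstimulated cells.

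Secondary granule targets of C/EBP epsilon went both ways, with 4 up and 2 down of 9 in each kind of mouse. Lcn2 rose by 1.59 ± 0.17 and 1.64 ± 0.17, the cathelicidin Camp by 1.19 in succinate mice and 0.88 in control mice, and the neutrophil collagenase Mmp8 fell (-1.31 ± 0.18 and -1.43 ± 0.18). Among the 9, Camp, Ngp, Ltf, Mmp8 and Mmp9 are also neutrophil markers. The part of neutrophils in these changes was not tested. The summed neutrophil markers were 15180 to 17340 CPM in succinate LPS libraries, 14110 to 19250 in control LPS libraries, 6638 to 10410 in unstimulated succinate libraries and 7804 to 13860 in unstimulated control libraries. S100a9 and Ngp were the largest parts of this sum, and its markers did not move as 1. Under LPS 4 of the 11 rose and 2 fell in succinate mice, and 5 rose and 2 fell in control mice. Cxcr2 averaged 12.7 and 10.3 CPM in LPS cells of succinate and control mice, against 26.0 and 26.1 CPM in their unstimulated cells. Of 6 tested KLF2 targets known from T cells and endothelium, 4 fell and 2 rose in each kind of mouse, with thrombomodulin Thbd (-3.69 ± 0.21 and -3.03 ± 0.20), the integrin Itgb7 (-2.08 ± 0.13 and -1.39 ± 0.12) and the sphingosine phosphate receptor S1pr1 (-1.89 ± 0.28 and -2.39 ± 0.28) lower and the chemokine receptor Ccr7 higher (2.93 ± 0.33 and 3.73 ± 0.35).

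Of 6 tested c-Maf targets of macrophages, 1 rose and 1 fell in succinate mice and 2 rose and 1 fell in control mice. Il10 rose to 60.8 ± 14.7 CPM in succinate LPS cells and 96.3 ± 16.7 CPM in control LPS cells, against 0.408 ± 0.313 and 0.475 ± 0.25 CPM in unstimulated cells of succinate and control mice. The plasma selenoprotein Selenop fell (-0.74 ± 0.22 and -0.85 ± 0.22), and the complement genes C1qa, C1qb and C1qc had 45, 70 and 45 counts over all 12 libraries and were too low to test. Of 8 tested RUNX1 targets, 4 rose and 1 fell in each kind of mouse, among them the chemokine Ccl3 (3.81 ± 0.20 and 3.60 ± 0.20) and the ion channel Trpm7, which fell (-0.38 in succinate mice and -0.33 in control mice), and Spi1 itself. Of 7 genes tied to ZEB2 in mononuclear phagocytes, 2 rose and 2 fell in succinate mice and 3 rose and 2 fell in control mice, with Id2 at 0.77 ± 0.19 and 0.97 ± 0.19 and Nr1h3, the liver X receptor alpha gene, at -0.72 ± 0.23 and -1.14 ± 0.23. In none of these lists did a gene pass in either succinate comparison or in the difference of the LPS effects.

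The genes whose log2 CPM followed each member most closely over the 12 libraries were picked from 7965 genes with a mean of at least 10 CPM. The libraries fall into 6 with and 6 without LPS, so all pairs of genes that change under LPS share that split, and r is given as a description. Spi1 was closest to the small GTPase Rhoq (r = 0.984), the adenosine receptor Adora2b (0.982) and the LPS co-receptor Cd14 (0.973), Cebpd to Orm1 (0.994), Dstn (0.993) and Tmbim4 (0.993), Cebpa to Sec14l1 (0.975), the repressor Bcl6 (0.972) and Hpgds (0.966), and Runx1 to Arl4c (0.985), Pip5k1c (0.983) and Slc1a5 (0.982). Of the members that did not pass under LPS, Cebpe was closest to the pentose phosphate enzyme Tkt (0.937), the replication factor Cdc45 (0.930) and the DNA polymerase subunit Pold3 (0.924), Zeb2 to Rusc2 (0.934) and Xiap (0.913), Klf2 to Tsen34 (0.960), Dhx40 (0.918) and Tcp1 (0.883), and Cebpb to Fzr1 (0.876) and Otulin (0.864). Maf was closest to Tmem176b (0.939), the integrin Itgal (0.923) and Myc (0.922).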

How the data were processed

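The deposited files hold whole-number read counts per gene, 1 file per library, not normalised. Per the submitters' processing notes, the authors used Trim Galore and the mm10 genome build. Not given in the sources used here are the aligner, the counter, the annotation and the handling of strand. Coordinates and exon lengths came from GENCODE M21 (GRCm38), which holds 54409 (99.77%) of the 54532 identifiers. Groups came from the sample titles. The members and lists were chosen with earlier results of these data known.

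Differences were tested across the whole table in edgeR 4.0.16 under R 4.3.3, with filterByExpr (14324 genes kept), TMM scaling and a quasi-likelihood fit with 1 mean per group over all 12 libraries, with Benjamini-Hochberg adjustment over all tested genes. The common biological coefficient of variation was 0.167 and the median SE of a log2 fold change 0.191 (interaction 0.269). DESeq2 1.42.0, limma-voom (limma 3.58.1), other filters and scalings, a replicate block, the library class and leaving out each library were alternatives. Named were the 9 members, up to 4 genes of each list per LPS comparison and up to 2 per succinate comparison with the smallest p, and the 3 genes most like each member. Some genes that this rule names are not reported here. Values of named genes in a comparison the rule did not pick, and those of Vcam1, Runx2, Cbfb, Spic and Orm1 were added after they were seen. Same-numbered libraries deviated together in LPS against none in succinate mice (r of 0.12 to 0.612 over 3 pairs). They also did so in succinate against control without LPS (0.333 to 0.522). Some libraries of unlike number deviated together too, such as unstimulated succinate replicate 2 with succinate LPS replicate 1 (r = 0.489). The main fit used no pairing, so its SE and p-values are unpaired. No 2 libraries of a group held the same counts within sampling noise (chi-square per degree of freedom 6.42 or more). The test was checked on simulated data with the same spread for all genes and changes placed in control LPS libraries only. Those changes were larger than the ones seen for Spi1 or Cebpb, so changes as small as these were not checked.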

Additional observations from a re-analysis of the deposited data

How the results depend on the processing

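Over the 9 members and 5 comparisons, 952 of the alternative values kept their direction and side of the threshold, or stayed uncalled, 20 lost a call and 9 gained one, and no called value changed direction. Of the 9 members, 5 were called in each LPS comparison. In control mice 1 was called within the lower library class, and 3 to 6 with 1 library left out, against 4 to 6 in succinate mice. With LPS, 0 members differed between succinate and control mice, but 1 did with no filter, 1 in DESeq2, and 0 to 1 with a library left out. Within the lower class 2220 genes (not 4331) answered LPS in succinate mice and 2098 (not 4306) in control mice. That class has fewer libraries, with 1 in each unstimulated group, whose spread was assumed to be like that of the other groups.

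The count of all genes that differed between succinate and control mice with LPS, 9, depended most on the processing. It was 694 with no filter, 30 with a stricter filter, 0 by library size alone, 346 in DESeq2, 34 in limma-voom, 0 with only the groups compared, 77 with the replicate block, 190 with the library class as a term, 1 within the lower class, and 0 to 197 with 1 library left out. Without LPS it was 0, or 72 with no filter and 1 in DESeq2. For the difference of the LPS effects it was 0, or 71 with no filter and 3 in DESeq2. Leaving out 1 library gave 0 in both. The cause was not tested. The replicate block changed no call of a member, in the comparisons where same-numbered libraries deviated together or in the others.

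The Cebpb share of C/EBP mRNA was 48.1% (succinate LPS), 57.1% (control LPS), 51.8% (unstimulated succinate) and 52.8% (unstimulated control) on raw counts, and 63.6% in unstimulated succinate cells without Cebpg.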

Other observations

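Transcripts that overlap members on the other strand were measured beside them. Zeb2os, antisense to Zeb2, averaged 5.84 ± 1.61 CPM in succinate LPS cells, 8.48 ± 0.904 CPM in control LPS cells, 3.25 ± 0.25 CPM in unstimulated succinate cells and 5.22 ± 1.13 CPM in unstimulated control cells (SD, n = 3 each). It rose under LPS by 0.85 ± 0.23 (adjusted p = 0.0122, edgeR) in succinate mice and 0.70 ± 0.22 (adjusted p = 0.0283) in control mice, where Zeb2 itself did not pass. Gm26626, which shares 106 exonic bases with Runx1 on the other strand, averaged 1.16 ± 0.336, 1.19 ± 0.237, 2.44 ± 0.608 and 2.65 ± 0.664 CPM in the same groups and fell with Runx1 (-1.07 ± 0.33, adjusted p = 0.0242, and -1.16 ± 0.34, adjusted p = 0.0168, edgeR). Without knowledge of strand, reads of a gene and its antisense partner cannot be told apart.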
